A study of Mus musculus with 12 samples.

Results

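The genes described here are 10 enzymes that make non-essential amino acids or pass on the one-carbon units of serine: Asns, Phgdh, Psat1, Psph, Shmt2, Mthfd2, Aldh18a1, Pycr1, Cbs and Cth. They were chosen by name from the 24062 genes of a count table, and all 10 were among the 12154 genes that passed the filter on low counts. Their values were followed in mouse embryonic fibroblasts (MEFs) with and without knockdown of BRUCE, in full medium and after starvation. BRUCE is a large protein of the inhibitor of apoptosis family with ubiquitin-conjugating activity, and Birc6 is its gene.

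Cells that run short of amino acids can make several of them from glucose and glutamate. Serine is made from a glycolytic intermediate by Phgdh, Psat1 and Psph in turn, and the mitochondrial enzymes Shmt2 and Mthfd2 take its one-carbon unit on to folate. Asparagine, proline and cysteine are made from aspartate, glutamate and homocysteine. Genes of these pathways are known targets of ATF4, a transcription factor whose translation rises when amino acids are scarce.

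RNA was sequenced from MEFs that expressed shRenilla, a control shRNA against Renilla luciferase, or shBruce#1, an shRNA against Birc6. Each line was kept in full medium (FM) or starved for 2 h in medium that lacked both serum and amino acids (Starv), with 3 libraries in each of the 4 conditions. One line carried each shRNA, so knockdown and other differences between the lines cannot be told apart, and neither can loss of serum and loss of amino acids. The labels do not say whether replicates were separate cultures, so p-values measure the spread between these libraries, which may be technical.

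Libraries held 7717265 to 18510540 counts, and the lowest total was that of shBruce Starv replicate 1. Normalized counts of Birc6 were 2787 to 5061 in the 6 shRenilla libraries and 703 to 1390 in the 6 shBruce libraries. The log2 difference between the lines was -1.75 in FM (edgeR adjusted p = 0.0627) and -1.98 in Starv (edgeR adjusted p = 0.0186). The fibroblast genes Vim (3034 to 4949.7 CPM, the count scaled to library size) and Col1a1 (1239 to 2854 CPM) were high in every library, whereas Thy1, another fibroblast marker, reached no more than 0.162 CPM. Markers of other cell types were low, apart from Sox2 of the embryonic stem cell markers, which reached 43.4 CPM while Pou5f1 was at 0 in 11 of 12 libraries and Nanog stayed at or below 0.606 CPM. The summed stem cell markers, mostly Sox2, were at 24.2 to 27.5 CPM in shRenilla FM and at 7.76 to 9.93 CPM in shRenilla Starv. In shBruce they were at 18.7 to 43.6 CPM in FM and at 8.48 to 24.0 CPM in Starv, which overlap. Their part in the results of starvation was not tested.

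The 10 genes differed widely in level. CPM per kb of transcript, the scale used for comparing genes with each other, averaged 244 ± 6.61 (SD, n = 3) for Psat1 and 201 ± 9.97 for Shmt2 in shRenilla FM, and 0.687 ± 0.0623 for Cbs. Between these came Asns at 82.5 ± 5.34, Aldh18a1 at 61.8 ± 2.66, Mthfd2 at 59.7 ± 2.76, Phgdh at 45.6 ± 5.80, Psph at 34.2 ± 1.30, Cth at 8.36 ± 0.453 and Pycr1 at 2.4 ± 0.153. Of neighbours in this order, only Aldh18a1 and Mthfd2 overlapped between libraries. In shRenilla Starv Mthfd2 and Aldh18a1 again overlapped, at 112 and 111, and Psph at 71.3 ± 7.30 stood above Phgdh at 53.8 ± 6.36 without overlap, the reverse of their order in FM. Of the 50-base stretches of their transcripts, 63.1% for Phgdh and 23.9% for Psph also occur in other genes, so the order of these levels is uncertain. In the shBruce conditions Psat1 and Shmt2 overlapped with each other, as did Mthfd2 with Aldh18a1, Aldh18a1 with the gene next below it and Phgdh with Psph.

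**Figure D1:**
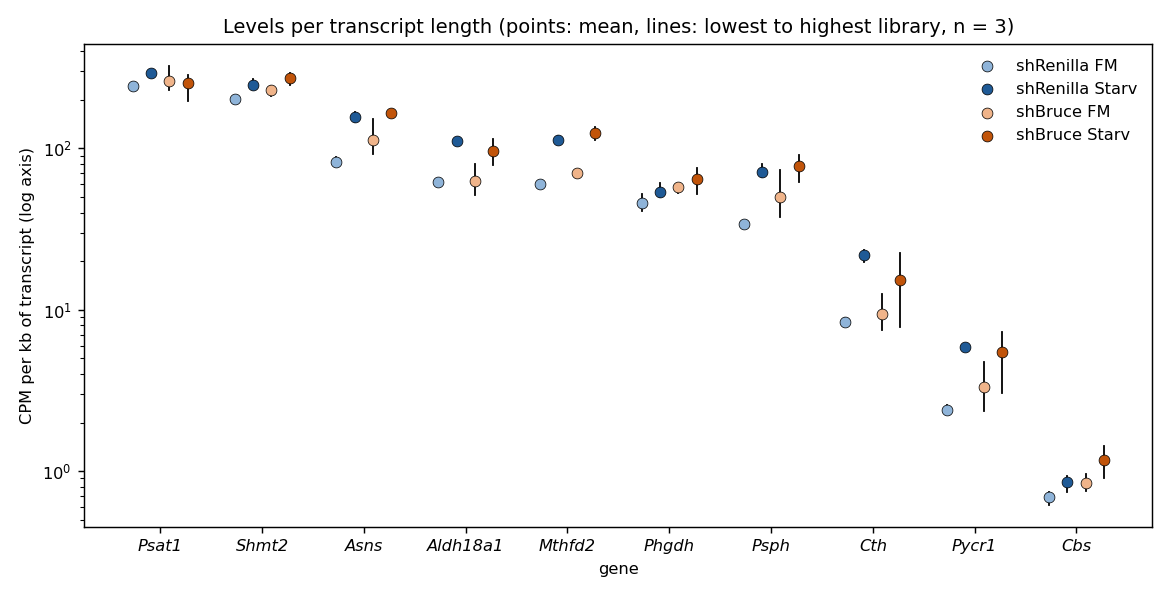
CPM per kb of transcript on a log axis for the 10 enzymes, ordered by their level in shRenilla FM. Points are means of 3 libraries and lines run from the lowest to the highest library, with Psat1 and Shmt2 highest and Cbs lowest in all 4 conditions.

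In starved shRenilla MEFs 6 of the 10 genes rose at an edgeR adjusted p under 0.05, namely Asns, Psph, Mthfd2, Aldh18a1, Pycr1 and Cth. None fell. Over all 12154 genes tested, 9.69% rose in this comparison. The other 4, Phgdh, Psat1, Shmt2 and Cbs, had log2 fold changes of 0.24 to 0.32 and did not pass the test. At least 2-fold rises were found for Psph, Pycr1 and Cth, against 3.87% of all genes. The median log2 fold change of the 10 was 0.88, beside -0.0051 over all genes.

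For 9 of the 10, every starved shRenilla library lay above every fed one, which held for 25.9% of all genes tested. Phgdh was the exception. With 3 libraries against 3, the exact permutation test gives such a gene p = 0.1, the smallest value it can reach. Since the RNA came from whole cultures, more cells that express a gene and more RNA per cell cannot be told apart.

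In starved shBruce MEFs 3 of the 10 rose, Asns, Mthfd2 and Aldh18a1, where 12.4% of all genes rose. All starved libraries lay above all fed ones for Asns, Shmt2 and Mthfd2, against 16.2% of all genes. The median log2 fold change was 0.58, beside 0.02 over all genes. The count depended on single libraries. It was 6 without shBruce FM replicate 3, in which most of the genes were high, and 6 without shBruce Starv replicate 1, in which several were low. Over all genes tested, 1368 of 12311 and 1518 of 12254 rose in these fits. The count was 4 without shBruce Starv replicate 3, in which several were high, where 1974 of 12278 genes rose. It was 1 without shBruce FM replicate 1 (986 of 12309 genes) and 1 without replicate 2 (975 of 12312). Without shBruce Starv replicate 2 it was 2 (1648 of 12284).

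**Figure D2:**
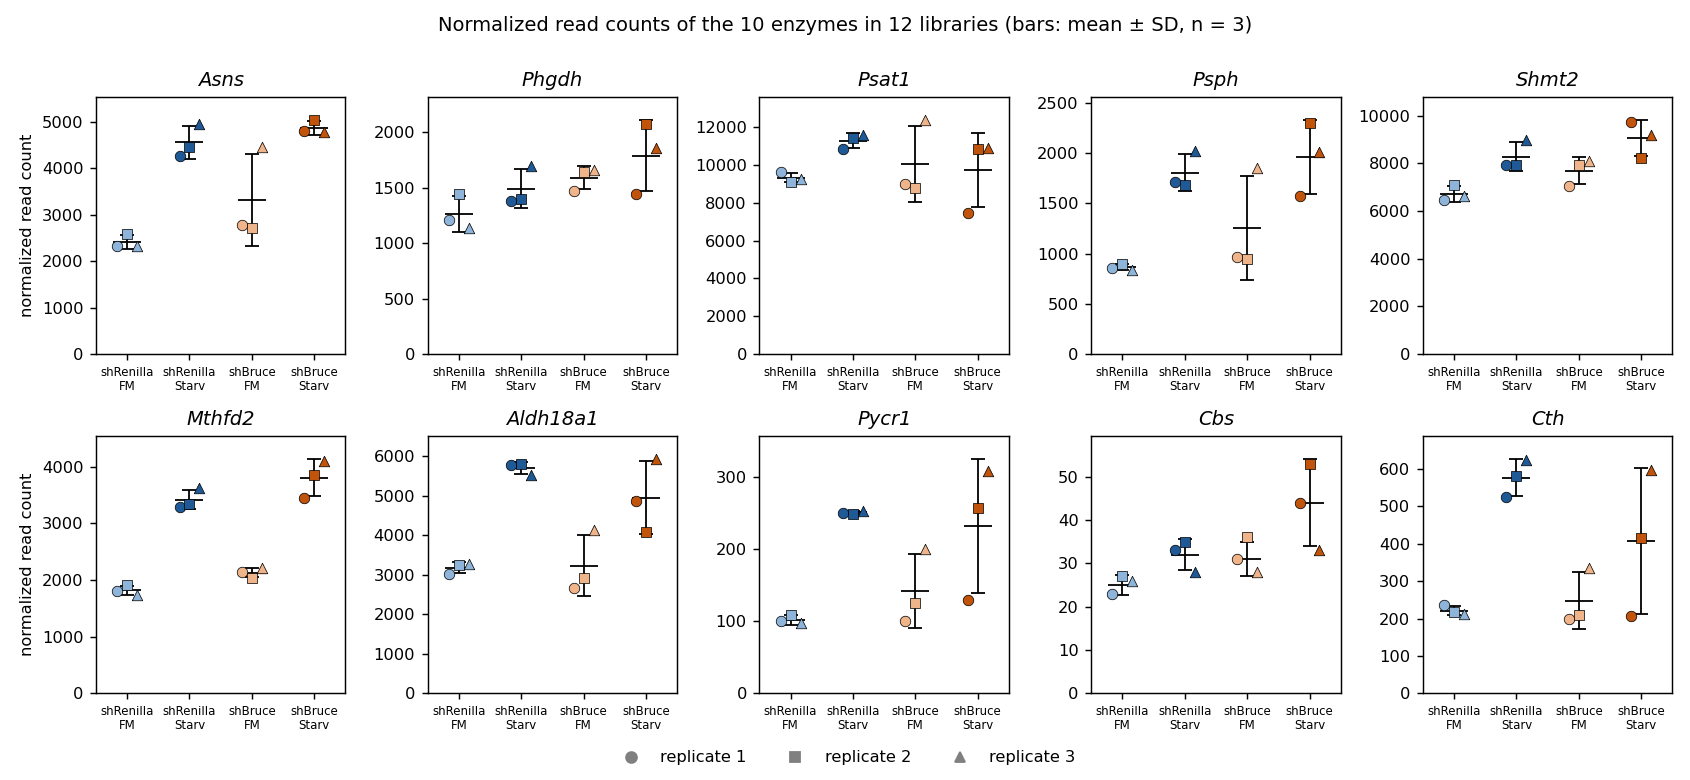
Normalized read counts of each enzyme in the 12 libraries, with the replicate shown by the shape of the point and mean ± SD (n = 3) by bars, on axes that start at 0. The shRenilla points form tight groups, and shBruce FM replicate 3 (triangle) lies near the starved libraries for Asns and Psph but with the fed ones for Mthfd2.

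Asns makes asparagine from aspartate with glutamine as the nitrogen donor, and lies at chr6:7675169-7693254 on the minus strand of GRCm38. In shRenilla FM its normalized counts were 2325, 2591 and 2317. In shRenilla Starv they were 4257, 4448 and 4950, all above the fed libraries. The rise was 1.89-fold (log2 0.92 ± 0.17 SE, edgeR adjusted p = 0.00240). In shBruce FM they were 2786, 2705 and 4442, and the third library was as high as the starved shRenilla libraries. In shBruce Starv they were 4790, 5032 and 4771, above every fed library. The log2 fold change in shBruce was 0.55 ± 0.17 (edgeR adjusted p = 0.0294), and it was 0.82 without shBruce FM replicate 3. The call was lost without either of the other fed shBruce libraries (0.44 without replicate 1 and 0.42 without replicate 2) and without shBruce Starv replicate 2 (0.53).

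The RefSeq promoter windows run from 250 bases before to 50 bases after each start site, and were found for 9 of the 10 genes, all but Cth. They were searched on both strands for TGATGNAA, the core of the C/EBP-ATF response element, a site known to bind ATF4 together with a C/EBP protein. It was present in Asns and Pycr1, and in 3.97% of the 32851 promoter windows. In Asns it lies 23 to 16 bases before the RefSeq start, within the span of 1 of 5 GENCODE coding transcripts. The stretches that hold it are shown 5′ to 3′ on the strand of the gene, with the motif in capitals, from GRCm38.p6.
Asns, chr6:7693214-7693243, minus strand: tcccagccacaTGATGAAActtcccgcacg
Pycr1, chr11:120643833-120643862, minus strand: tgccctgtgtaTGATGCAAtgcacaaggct
In Pycr1 the motif lies 103 to 96 bases before the RefSeq start, upstream of the GENCODE gene. The cyclic AMP response element TGACGTCA was in the windows of 0 of the 9 genes (1.79% of all windows). The E-box CACGTG was in those of Aldh18a1 and Cbs (7.15% of all windows). A match describes the letters of the window and shows no binding.

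The first enzyme of serine synthesis, Phgdh (chr3:98313170-98339990), oxidizes 3-phosphoglycerate. Its normalized counts were 1207, 1440 and 1133 in shRenilla FM and 1380, 1393 and 1691 in Starv, which overlap. Its log2 fold change was 0.24 ± 0.15 (edgeR adjusted p = 0.297). In shBruce they were 1467, 1641 and 1655 in FM and 1441, 2072 and 1852 in Starv, with a log2 fold change of 0.17 (edgeR adjusted p = 0.425). Of the 50-base stretches of its transcript, 63.1% also occur in transcripts of other genes, many of them pseudogenes such as Phgdh-ps1, so its counts are uncertain.

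Psat1 (chr19:15904678-15947337) carries out the second step, a transamination with glutamate, and was the most abundant of the 10 in 3 of the 4 conditions. In shRenilla it went from 9608, 9115 and 9266 in FM to 10835, 11433 and 11558 in Starv, without overlap. That log2 difference of 0.27 ± 0.16 did not pass the test (edgeR adjusted p = 0.275). Psat1 did pass in the fit of only these groups (0.29, edgeR adjusted p = 0.00551), in which 2681 of all 11954 genes rose. In shBruce the values were 8974, 8805 and 12371 in FM and 7471, 10839 and 10902 in Starv. Both ranges are wide, and the highest of these libraries is a fed one and the lowest a starved one. Starvation gave a log2 fold change of -0.05 (edgeR adjusted p = 0.869), and its sign turned to 0.13 without shBruce FM replicate 3 and to 0.10 without shBruce Starv replicate 1.

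Psph (chr5:129765558-129787449), which removes the phosphate in the last step, rose 2.09-fold in shRenilla (log2 1.06 ± 0.23 SE, edgeR adjusted p = 0.00626). Its normalized counts there were 860, 900 and 834 in FM and 1712, 1685 and 2017 in Starv. In shBruce they were 968, 948 and 1850 in FM and 1568, 2297 and 2014 in Starv. The third fed library lay inside the range of the starved ones. A log2 fold change of 0.64 ± 0.23 did not pass the test (edgeR adjusted p = 0.0560), and without that library it was 1.03 (edgeR adjusted p = 0.00118). Without shBruce FM replicate 2 it was 0.47 (edgeR adjusted p = 0.204). With all libraries it passed in DESeq2 (adjusted p = 0.0309) and limma-voom (adjusted p = 0.0376), and in 9 of 23 alternatives in all. The ratio of Psph to Psat1 within a library, which does not depend on library scaling, was 0.78 higher in Starv on the log2 scale in shRenilla and 0.75 higher in shBruce. Both were without overlap (exact permutation p = 0.1 each, the smallest possible, for a ratio chosen after the values were seen). Of the 50-base stretches of Psph, 23.9% are shared with Cct6a, which overlaps it on the opposite strand. Normalized counts of Cct6a were 16603 to 17920.0 in shRenilla FM and 15096 to 16747 in Starv, with a log2 fold change of -0.10 (edgeR adjusted p = 0.628).

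Shmt2 (chr10:127517123-127522444) splits serine into glycine and a one-carbon unit in mitochondria. Its normalized counts in shRenilla were 6449, 7097 and 6639 in FM and 7940, 7929 and 8968 in Starv, and in shBruce 7041, 7931 and 8085 in FM and 9740, 8234 and 9193 in Starv. In both lines the starved libraries lay above the fed ones by a small margin. The log2 fold change was 0.30 ± 0.11 in shRenilla (edgeR adjusted p = 0.0879) and 0.24 ± 0.11 in shBruce (edgeR adjusted p = 0.150), neither past the test. In shRenilla Shmt2 passed under 7 of 23 alternatives, among them DESeq2 (adjusted p = 0.0459) and the fit of only these groups (adjusted p = 0.00829). Over all genes, 1363 of 12154 rose with DESeq2 and 2681 of 11954 in the fit of only these groups.

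Mthfd2 (chr6:83305691-83325908), which oxidizes the folate-bound unit that Shmt2 makes, rose in both lines and had the narrowest confidence intervals of the 10. Its normalized counts went from 1801, 1907 and 1741 in shRenilla FM to 3293, 3348 and 3616 in Starv, 1.88-fold (log2 0.91 ± 0.11 SE, edgeR adjusted p = 8.6e-05). In shBruce they went from 2148, 2042 and 2203 to 3454, 3854 and 4100, 1.78-fold (log2 0.84 ± 0.11, edgeR adjusted p = 1.4e-04). It passed the test in both lines under all 23 alternatives without a fold threshold. Here shBruce FM replicate 3 was only 0.07 above the mean of the other fed shBruce libraries on the log2 scale, against 0.69 for Asns and 0.95 for Psph. The log2 ratio of Mthfd2 to Shmt2 was higher in Starv by 0.61 in shRenilla and 0.60 in shBruce, again without overlap (exact permutation p = 0.1 each). Asns to Psat1 was likewise 0.64 higher in each line without overlap. Other ratios overlapped in shBruce, namely Psph to Phgdh (0.54), Pycr1 to Aldh18a1 (0.05), Cth to Cbs (0.16) and Mthfd2 to Asns (0.24). Of these, only Mthfd2 to Asns (-0.0031) overlapped in shRenilla.

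The proline arm starts with Aldh18a1 (chr19:40550257-40588463), which reduces glutamate toward pyrroline-5-carboxylate. It rose 1.79-fold in shRenilla (log2 0.84 ± 0.17 SE, edgeR adjusted p = 0.00408), from 3024, 3255 and 3267 in FM to 5785, 5802 and 5530 in Starv. In shBruce its normalized counts were 2663, 2913 and 4122 in FM and 4853, 4081 and 5918 in Starv. These ranges overlap by a single pair of libraries. The log2 fold change of 0.61 ± 0.17 passed the test (edgeR adjusted p = 0.0184), but not without shBruce FM replicate 1 (0.49) or replicate 2 (0.54).

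Pycr1 (chr11:120635712-120643769), which makes proline from that intermediate in mitochondria, had counts of 100, 109 and 97 in shRenilla FM and 250, 249 and 253 in Starv after normalization. The rise was 2.45-fold (log2 1.29 ± 0.28 SE, edgeR adjusted p = 0.00706). In shBruce the values were 101, 125 and 200 in FM and 129, 257 and 309 in Starv. Starved replicate 1 lay among the fed libraries, 1.13 below the mean of the other starved ones on the log2 scale. The log2 fold change of 0.73 ± 0.28 did not pass (edgeR adjusted p = 0.0788), and it was 0.98 without that library (edgeR adjusted p = 0.00784) and 1.06 without shBruce FM replicate 3 (edgeR adjusted p = 0.0192). Without shBruce Starv replicate 3 it was 0.48 (edgeR adjusted p = 0.209).

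Cbs and Cth form the transsulfuration arm, in which Cbs joins serine to homocysteine and Cth cleaves the product to cysteine. Cbs (chr17:31608894-31637238) was the least abundant of the 10. Its normalized counts were 23, 27 and 26 in shRenilla FM, 33, 35 and 28 in shRenilla Starv, 31, 36 and 28 in shBruce FM and 44, 53 and 33 in shBruce Starv. The log2 fold change was 0.32 ± 0.23 in shRenilla (edgeR adjusted p = 0.371) and 0.47 ± 0.23 in shBruce (edgeR adjusted p = 0.161), neither past the test. In shBruce it passed without shBruce Starv replicate 3 (0.65, edgeR adjusted p = 0.0447).

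Cth (chr3:157894248-157925077) had the highest fold change of the 10 in shRenilla, 2.60-fold (log2 1.38 ± 0.29 SE, edgeR adjusted p = 0.00614). Its normalized counts there were 235, 217 and 212 in FM and 524, 582 and 623 in Starv. In shBruce they were 200, 209 and 335 in FM and 206, 416 and 598 in Starv. The starved shBruce libraries spread over the whole span from the fed to the starved shRenilla level. In this line the log2 fold change of 0.73 ± 0.29 did not pass the test (edgeR adjusted p = 0.0908), and it was 1.02 without shBruce Starv replicate 1 (edgeR adjusted p = 0.00484). Without shBruce Starv replicate 3 it was 0.35 (edgeR adjusted p = 0.318).

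**Figure D3:**
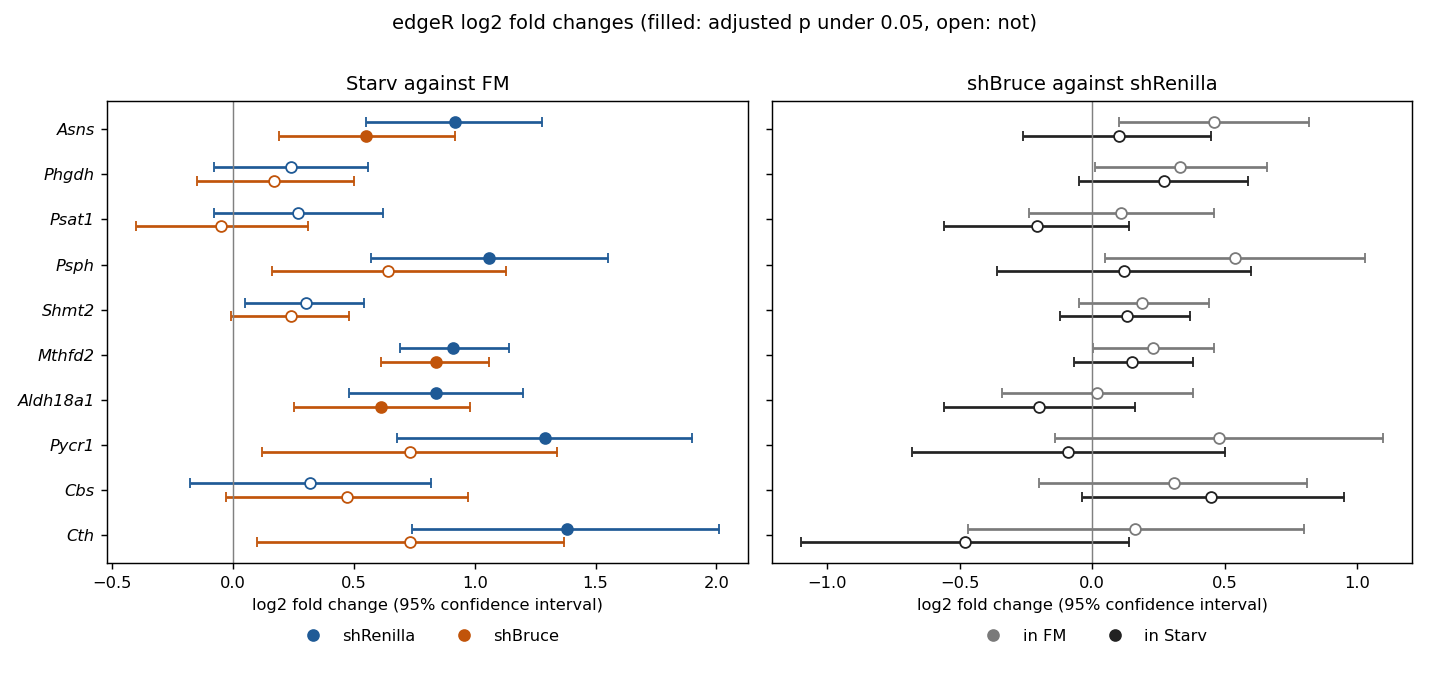
Log2 fold changes with 95% confidence intervals for starvation in each line and for shBruce against shRenilla in each medium, with filled points for an edgeR adjusted p under 0.05. Filled points appear for 6 genes in shRenilla and 3 in shBruce, all in the comparison of Starv with FM.

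Across libraries, the mean log2 level of the 10 genes relative to the shRenilla FM mean was -0.04 to 0.07 in shRenilla FM and 0.70 to 0.81 in shRenilla Starv. In shBruce FM it was 0.07, 0.16 and 0.54, and in shBruce Starv 0.49, 0.85 and 0.90. The third fed shBruce library thus lay above the first starved one. The 10 genes together took 0.169% to 0.179% of all counts in shRenilla FM and 0.257% to 0.282% in shRenilla Starv. In shBruce FM the share was 0.174%, 0.181% and 0.240%, and in shBruce Starv it was 0.216%, 0.264% and 0.289%.

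In shBruce FM replicate 3, 9 of the 10 genes were above both other fed shBruce libraries, with a median log2 difference of 0.52 from their mean, and Cbs was below both. Of all genes tested, 39.7% were above both in this library and 37.1% below both, with a median of 0.01. Psph (0.95), Pycr1 (0.84), Cth (0.71), Asns (0.69), Aldh18a1 (0.57) and Psat1 (0.48) were well above, whereas Shmt2 (0.11), Phgdh (0.09) and Mthfd2 (0.07) differed little. Of the 1172 other genes that rose in shRenilla Starv, 53.2% were also above both, with a median of 0.12, and of the 883 that fell there 61.6% were below both, with a median of -0.16. In shBruce Starv replicate 1, which had the lowest total, 6 of the 10 were below both other starved libraries, as were 38.8% of all genes tested. Cth (-1.28) and Pycr1 (-1.13) were lowest, whereas Asns (-0.03) and Aldh18a1 (-0.02) lay between them and Shmt2 (0.16) was above both. Of the 1172 other genes, 48.8% were below both in that library. In shBruce Starv replicate 3, 5 of the 10 were above both other starved libraries, as were 41.5% of all genes tested. Cth (1.03), Pycr1 (0.76) and Aldh18a1 (0.41) were highest there, whereas Cbs (-0.54) and Asns (-0.04) were below both. Of the 1172 other genes, 64.8% were above both, with a median of 0.30 beside 0.07 over all genes.

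**Figure D4:**
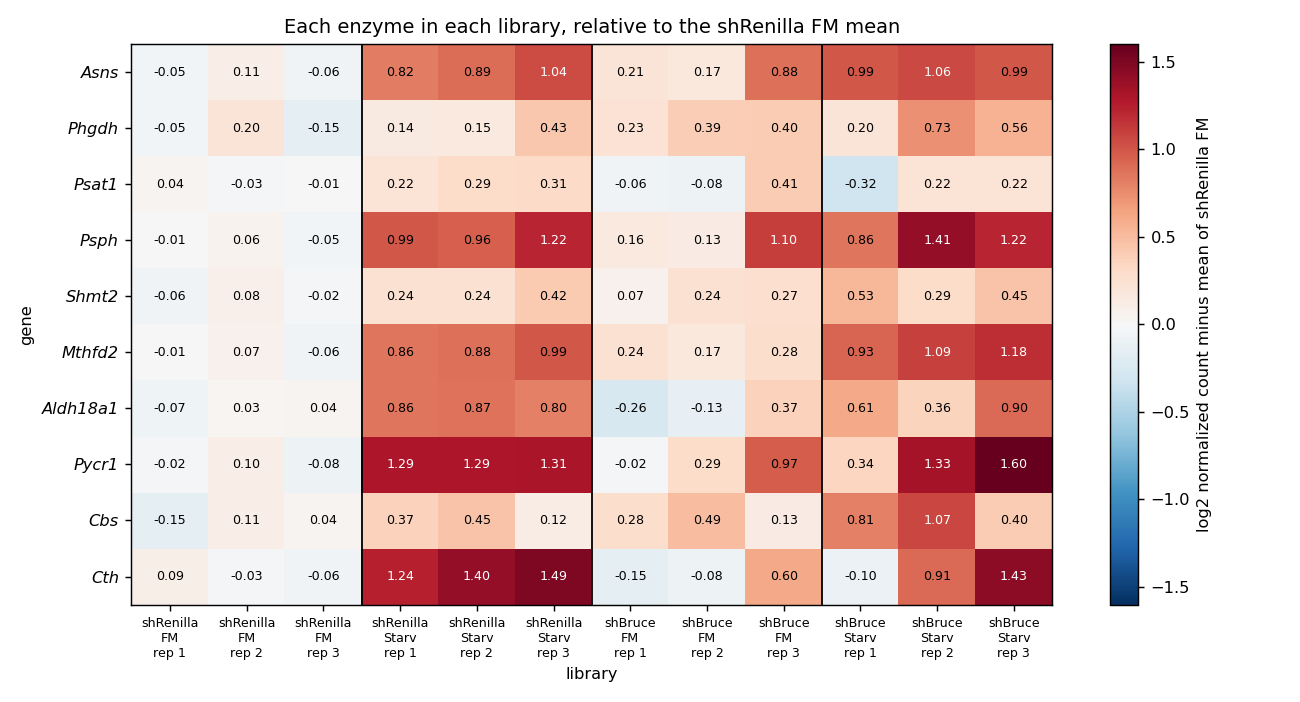
Log2 normalized count of each enzyme in each library minus its mean in shRenilla FM, with the value printed in each cell. The shRenilla Starv columns hold 0.12 to 1.49, and shBruce FM replicate 3 differs from its neighbours for Asns, Psph, Pycr1 and Cth but not for Mthfd2.

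Leaving out both shBruce FM replicate 3 and shBruce Starv replicate 1 was a choice made after the data were seen. In that fit 7 of the 10 genes rose with starvation in shBruce, namely Asns, Psat1, Psph, Mthfd2, Aldh18a1, Pycr1 and Cth. Of all 12246 genes tested, 1676 rose. The log2 fold changes were then 1.16 for Psph, 1.32 for Pycr1 and 1.30 for Cth. Each shBruce group held 2 libraries in that fit.

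**Figure D5:**
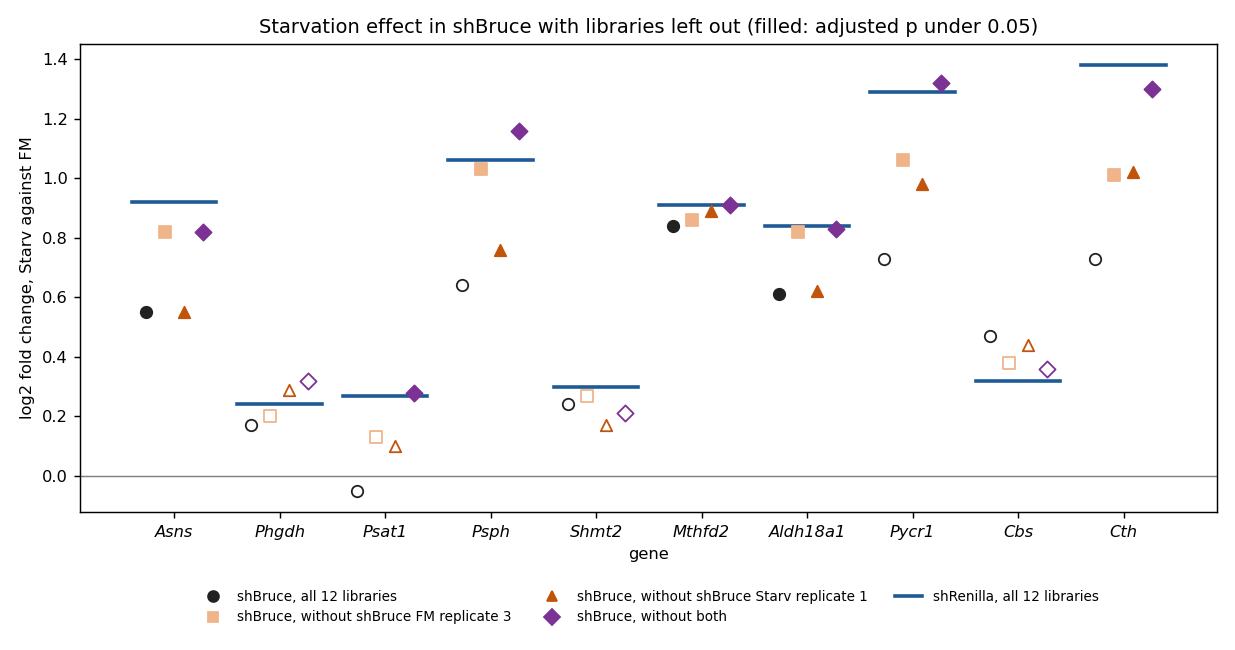
Log2 fold change of each enzyme in starved against fed shBruce MEFs with all libraries, without shBruce FM replicate 3, without shBruce Starv replicate 1 and without both, beside the shRenilla value (blue line). Filled points mark an edgeR adjusted p under 0.05, of which there are 3, 6, 6 and 7. Over all genes tested, 1506, 1368, 1518 and 1676 rose in these fits.

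Between the lines, none of the 10 genes differed in FM at an edgeR adjusted p under 0.05, and neither did any of the 12154 genes tested (0%). DESeq2 called 26 of all genes higher and 50 lower, and edgeR on only these 6 libraries called 221 higher and 376 lower, none of them among the 10. At an unadjusted p under 0.05 edgeR called 4 of the 10, all higher in shBruce: Asns (log2 0.46), Psph (0.54), Phgdh (0.33) and Mthfd2 (0.23). The background at that level was 14.4% of all genes. Without shBruce FM replicate 3 the count was 0 (1425 of all 12311 genes at that level). It was also 0 without shRenilla FM replicate 1 (748 of 12317) or replicate 3 (746 of 12314). The count was 2 without replicate 2 of shRenilla FM (1945 of 12308) or of shBruce FM (1039 of 12312). So it was without shRenilla Starv replicate 1 (1492 of 12295) or replicate 2 (1495 of 12301). Leaving out shBruce Starv replicate 1 gave 5 (2831 of 12254). All shBruce libraries lay above all shRenilla libraries for Asns, Phgdh, Psph, Mthfd2 and Cbs, against 16.4% of all genes. Summed fibroblast markers moved in the same direction, from 10245 to 10656 CPM in shRenilla FM to 11037 to 13523 CPM in shBruce FM, and their part was not tested.

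In Starv none of the 10 differed between the lines, with log2 differences from -0.48 (Cth) to 0.45 (Cbs), where 23.9% of all genes were called. At an unadjusted p under 0.05 none of the 10 passed, against 41.2% of all genes. None of the 10 had all shBruce libraries higher, against 16.4% of all genes, and none had all of them lower. The background was itself unstable, since a fit of only these 6 libraries called 0 genes. DESeq2 and limma-voom also called 0 of the 10. Over all 12154 genes DESeq2 called 2004 higher and 1777 lower, and limma-voom 1291 higher and 1477 lower. Without shBruce Starv replicate 3, Cbs was higher (0.64, edgeR adjusted p = 0.0340) and Cth lower (-0.86, edgeR adjusted p = 0.0172) in shBruce. In that fit 2727 of all 12278 genes tested were higher and 3008 lower. The 95% confidence intervals of the difference ran from -0.07 to 0.38 for Mthfd2 and from -1.10 to 0.14 for Cth, so a lower Cth level in starved shBruce MEFs lay within the error. Libraries also differed in how counts changed with transcript length, by 0.0327 to 0.2046 log2 units per doubling of length in shRenilla Starv and by -0.2247 to 0.0355 in shBruce Starv. With the trends in length and in GC content removed together, the median difference of the 10 went from 0.11 to -0.13.

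The interaction of line and medium, which tests whether the starvation effect differed between the lines, was past the adjusted threshold for 0 of the 10 genes and for 0% of all genes. At an unadjusted p under 0.05 edgeR called 0 of the 10 and 474 of all genes, and DESeq2 called none after adjustment. The estimates were below 0 for 9 of the 10, that is, with a smaller rise in shBruce, and ran from -0.65 (Cth, 95% confidence interval -1.54 to 0.24) to 0.15 (Cbs). Their median was -0.27, and -0.05 without shBruce FM replicate 3. It was -0.37 without shBruce FM replicate 1 and also -0.37 without shBruce Starv replicate 3. In the last of these fits 1 of the 10 and 3028 of 12278 genes had an unadjusted edgeR p under 0.05, and none passed after adjustment. So the 6 genes called in shRenilla and the 3 called in shBruce were not shown to mark a difference between the lines.

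Genes of the neighbouring pathways were counted in 4 lists with 66 genes, of which 58 were tested. In shRenilla 6 rose and 1 fell with starvation, with a median log2 fold change of -0.05, where 9.69% of all genes rose. These counts became 12 and 10 with only the groups compared, where 2681 of all 11954 genes rose and 2332 fell. With length and GC trends removed they were 9 and 5, where 1414 of 12154 genes rose and 1666 fell. They were 4 and 0 without shRenilla FM replicate 2, where 676 of 12308 genes rose and 522 fell. In shBruce 9 rose and 5 fell, with a median of 0.02, where 12.4% of all genes rose. With only the groups compared 3 rose and 0 fell, where 552 of all 11787 genes rose and 404 fell. In the one-carbon and glycine list, which has 20 tested genes, 4 rose in shRenilla. The largest was Aldh1l2, the mitochondrial enzyme that oxidizes formyl-folate, from 703 ± 67.4 to 2541 ± 419.5 normalized counts (SD, n = 3, log2 1.85, edgeR adjusted p = 0.00539). Amt of the glycine cleavage system rose in both lines (log2 1.01 in shRenilla and 1.22 in shBruce). In shBruce Aldh1l1 rose from 3 to 14 normalized counts, and Mthfd2l (-1.05), Slc25a32 (-0.88) and Mthfd1 (-0.46) fell.

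None of the paralogs Shmt1, Mthfd2l and Pycrl rose with starvation in either line. Shmt1, the cytosolic counterpart of Shmt2, had a log2 fold change of -0.06 in shRenilla (edgeR adjusted p = 0.806). Mthfd2l, the close relative of Mthfd2, went from 154, 123 and 161 in shRenilla FM to 89, 93 and 97 in Starv, a difference that did not pass the test there but did in shBruce. Of the proline and ornithine list, in which no gene rose in either line, P4ha2, a prolyl hydroxylase of collagen, fell in shBruce (-0.48).

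Of the aspartate, glutamate and alanine list, Gpt2, the mitochondrial alanine aminotransferase, rose in both lines, from 469 ± 22.7 to 1961 ± 2.95 normalized counts in shRenilla (log2 2.06, edgeR adjusted p = 1.1e-04) and by a log2 of 1.67 in shBruce. Gpt, its cytosolic counterpart, rose in shBruce (0.63). In the methionine and cysteine list Mat2b, a subunit of methionine adenosyltransferase, rose in shRenilla (0.71), while in shBruce Tst (0.86), Csad (0.77) and Mpst (0.75) of sulfur metabolism rose and Ahcyl1 (-0.32) fell. Between the lines, 0 of the 58 genes differed in FM. With only the groups compared 3 were higher and 1 lower in shBruce, where 221 of all 11680 genes were higher and 376 lower. In Starv 10 were higher in shBruce and 4 lower, with Ahcy (1.00) and Csad (0.82) among those higher, beside the 23.9% of all genes called in either direction. These counts were not stable: 0 of the list was called with only the groups compared or without shRenilla Starv replicate 1 or 2. In those fits 0 of all genes were called. It was also 0 of the list without shBruce Starv replicate 2, where 5 of all 12284 genes were higher and 10 lower. Without shBruce Starv replicate 3, 17 were higher and 9 lower, where 2727 of all 12278 genes were higher and 3008 lower.

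The genes whose log2 CPM followed each enzyme most closely over the 12 libraries are given by Pearson's r as a description, since all libraries share the same 4 conditions and normalization. For Mthfd2 they were Atf4 (r = 0.994), Slc25a45 (0.991) and Stoml1 (0.988). Atf4 mRNA had log2 fold changes of 1.07 in shRenilla and 1.12 in shBruce, both past the test (edgeR adjusted p = 4.2e-05 and 2.3e-05). For Asns they were Pck2, the mitochondrial phosphoenolpyruvate carboxykinase (0.982), Cpt2 of fatty acid import (0.979) and Psph (0.978). For Pycr1 they were Zscan21 (0.976), the leucyl-tRNA synthetase gene Lars (0.973) and Nfil3 (0.970), and for Cth they included LOC106740 (0.970) and Mkrn2 (0.966). Phgdh had a different set with lower values, Gtf3c5 (0.940), Tssc1 (0.936) and Ric8 (0.933), none of which passed the test for starvation in either line. Among the 45 pairs of the 10 enzymes, r had a median of 0.66 and ran from -0.15 to 0.98.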

How the data were processed

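Read counts of 12 RNA-Seq libraries of MEFs were used. The authors extracted RNA with TRIzol, enriched poly(A) RNA and sequenced 50-base single-end reads. STAR 2.4.0d, HTSeq 0.5.4p3 and mm10 are named in the submitters' processing notes. The deposited table holds raw read counts per gene without normalization. Strand, overlap setting and annotation are not given in the sources used here. Groups came from the labels.

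The main test was the two-sided quasi-likelihood test of edgeR 4.0.16 (R 4.3.3), with TMM, filterByExpr, a joint fit of 4 condition means and Benjamini-Hochberg adjustment over 12154 genes at a level of 0.05. Normalized counts are counts divided by the effective library size relative to the geometric mean. The exact permutation test of 3 against 3 libraries cannot go below p = 0.1. Totals were 7717265 to 18510540 counts, and the chi-square per degree of freedom between replicates was 2.18 to 92.3, so errors come from the spread between libraries. Positions and lengths came from GENCODE M21 on GRCm38. The fit was tested on simulated data.

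The 10 enzymes and all lists were chosen with earlier results of these data known. Named were Birc6, the enzymes, per pathway list and comparison at most 3 genes that rose and 3 that fell, by size of change, and the 3 genes most correlated with each of 5 enzymes. The paralogs, Cct6a and the ratios of 2 enzymes were chosen after their values were seen. Alternatives were DESeq2 1.42.0 (test, size factors), limma-voom 3.58.1, upper-quartile normalization, other count filters, a replicate block, length and GC trends removed (spline with 4 degrees of freedom), libraries left out, only the groups compared and a 2-fold threshold. Results of some genes that this rule names are not reported here.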

Additional observations from a re-analysis of the deposited data

How the results depend on the processing

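Of 1140 results for single enzymes under alternatives, 1078 kept their direction and their side of the threshold, 27 gained a call, 7 lost one and 28 changed sign, and the causes were not tested. In shRenilla, Asns, Psph, Mthfd2, Aldh18a1, Pycr1 and Cth passed the edgeR test or its alternative under all 23 settings without a fold threshold, and a change of at least 2-fold left 3. In shBruce the count of 3 became 7 with both shBruce FM replicate 3 and shBruce Starv replicate 1 left out. In that fit 1676 of all 12246 genes rose. The count was 1 with only the groups compared, where 552 of 11787 genes rose, and 0 at a 2-fold change. With single libraries left out it was 1 to 6, where 975 to 1974 of all genes rose. Between the lines in Starv it was 0 to 2 with single libraries left out, where the count over all genes was 0 to 5735. The labels do not say whether replicate numbers pair the samples. Of 18 pairs with the same number, 5 had correlated deviations over 0.1 (median -0.0205, range -0.456 to 0.347). Deviations from means of 3 libraries cannot settle this. With the replicate block, 6 enzymes rose in shRenilla and 4 in shBruce, where 1043 and 1316 of all 12154 genes rose. Between the lines 0 enzymes were called in either medium, where 0 of all genes were called in FM and 1932 in Starv.

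For Starv against FM in shBruce, Psat1 was 0.04 with upper-quartile normalization, 0.28 with both libraries left out, and -0.14 to 0.13 with single libraries left out. For the lines in FM, Aldh18a1 was -0.0026 with limma-voom, and with both libraries left out Psat1 was -0.06, Aldh18a1 -0.18 and Cth -0.11. With single libraries left out Psat1 was -0.07 to 0.19, Aldh18a1 -0.19 to 0.14 and Cth -0.12 to 0.30. For the lines in Starv, with length and GC trends removed Phgdh was -0.07, Psph -0.15 and Shmt2 -0.13, and with the replicate block as well they were -0.09, -0.17 and -0.14. Pycr1 was 0.16 with both libraries left out. With single libraries left out Psph was -0.01 to 0.24 and Pycr1 -0.34 to 0.16. For the interaction, with both libraries left out Phgdh was 0.07, Psph 0.08 and Pycr1 0.01, and with single libraries left out Phgdh was -0.19 to 0.04 and Cbs -0.05 to 0.33. Cbs had the lowest counts of the 10 enzymes, 23 to 53 after normalization, and the part of depth in its error was not tested.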
